A study of Homo sapiens with 8 samples.

Results

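Motile cilium axoneme genes encode the moving core of a cilium or flagellum and the machinery that builds it. They were taken here as every transcript cluster (the array's unit for a transcribed locus) whose gene symbol in the platform annotation named a cilia and flagella associated protein (CFAP), a dynein intermediate chain (DNAI), a dynein assembly factor (DNAAF, PIH1D), a nexin-dynein regulatory complex (DRC) subunit, a radial spoke protein (RSPH), a tektin, SPAG6, SPAG16, SPAG17, MNS1, an intraflagellar transport (IFT) protein, an outer-arm docking protein (ODAD1 to ODAD4) or the transcription factor FOXJ1. Dynein heavy chains and light chains (DNAH, DNAL, DNALI1) were also sought, but 0 named clusters matched, so they are not analysed here. Of 16098 named transcript clusters, 94 matched, for 92 of 14884 symbols. Where a symbol had several clusters, the one with the highest mean over the 8 arrays was used. That mean was the only measured value used to choose between clusters, and it affected DRC11 (means of 5.30 and 4.95 on the log2 scale) and CFAP91 (4.95 and 2.56). The gene family itself was chosen with earlier results of these data known.

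The series varied TET1, the enzyme that oxidises 5-methylcytosine in DNA, up or down in HEK293T cells, a human embryonic kidney line carrying the SV40 large T antigen. The plasmid groups had 1 array each, with cells given TET1-FL, mTET1-FL, TET1-CD or mTET1-CD (FL and CD are read here as full length and catalytic domain, and m as the catalytically mutant form) or the empty vector, and the transfected cells were purified by fluorescence-activated sorting 3 days later. The other 3 arrays held lentiviral shRNA clones, 1 each of shTET1#1, shTET1#2 and shControl. Every array therefore is 1 transfection or 1 clone of the same line, and no label names separate cultures. The 2 TET1 shRNA clones were fitted as 1 group.

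In motile cilia, a ring of doublet microtubules surrounds a central pair, and dynein arms on each doublet walk along its neighbour to bend the axoneme. Radial spokes and the nexin-dynein regulatory complex time the arms, proteins inside the doublets hold the tubules together, and cytoplasmic factors preassemble the dyneins. IFT carries the parts into the cilium and also serves the non-motile primary cilium, which most of the other genes do not. FOXJ1 and the RFX factors, which bind the X-box, switch these genes on in multiciliated cells, a cell type that HEK293T is not.

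TET1 itself was read by 2 transcript clusters. The brighter stood at 12.22, 12.47, 10.42 and 11.05 (log2) with TET1-FL, mTET1-FL, TET1-CD and mTET1-CD, against 9.51 with the vector, and the other lay at 11.80, 11.91, 12.10 and 12.03, against 5.86. In the shRNA clones the brighter stood at 8.62 in shTET1#1 and 9.14 in shTET1#2, against 9.29 in shControl, and the other at 5.27 and 6.20, against 5.71. Neither cluster was much lower in the second clone, which is called below the array labelled shTET1#2. Array medians lay between 5.47 and 5.55. Of 10 fixed HEK293T lineage markers, 6 were measured, and KRT18 (9.30 to 9.77) and VIM (7.92 to 8.60) lay far above those medians on every array, while PAX8 (4.79 to 5.29) lay below them.

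Promoters, the 250 bases before and 50 after a gene's start in RefSeq's GRCh38.p14 annotation, were found for 79 of the 92 genes. The 6-base RFX half-site GTTGCC, on either strand, was present in 37 of them (46.8%), against 3323 of all 27305 promoters (12.2%). The complete X-box, GTTNCC followed 2 bases later by GGNAAC, which can overlap a half-site, was present in 3 (3.80%, PIH1D2, CFAP45 and SPAG16), against 0.458% of all promoters. The FOXJ1 core TGTTTAC, on either strand, was present in 5 (6.33%), against 3.41%. At least 10 CpG dinucleotides, the substrate sequence of TET1, stood in 91.1% of these promoters, against 56.0% of all promoters and 86.3% of those of named genes kept by the signal filter described below. The 6 promoters shown are those of the genes on which the comparisons turn, each printed 5′ to 3′ on the gene's strand, with any half-site, X-box or FOXJ1 core in capitals.
PIH1D2 (chr11:112073968-112074267, minus strand): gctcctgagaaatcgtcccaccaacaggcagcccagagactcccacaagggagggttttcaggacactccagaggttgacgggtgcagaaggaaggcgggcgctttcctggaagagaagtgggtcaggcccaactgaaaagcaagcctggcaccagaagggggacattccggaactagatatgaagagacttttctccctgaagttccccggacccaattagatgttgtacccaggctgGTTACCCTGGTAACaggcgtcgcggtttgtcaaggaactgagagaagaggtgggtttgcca
CFAP43 (chr10:104232315-104232614, minus strand): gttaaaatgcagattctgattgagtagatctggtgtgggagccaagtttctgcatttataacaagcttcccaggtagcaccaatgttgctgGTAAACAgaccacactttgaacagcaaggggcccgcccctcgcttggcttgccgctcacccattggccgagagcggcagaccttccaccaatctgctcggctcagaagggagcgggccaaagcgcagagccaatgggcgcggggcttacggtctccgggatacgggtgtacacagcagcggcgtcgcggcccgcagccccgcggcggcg
RSPH4A (chr6:116616229-116616528, plus strand): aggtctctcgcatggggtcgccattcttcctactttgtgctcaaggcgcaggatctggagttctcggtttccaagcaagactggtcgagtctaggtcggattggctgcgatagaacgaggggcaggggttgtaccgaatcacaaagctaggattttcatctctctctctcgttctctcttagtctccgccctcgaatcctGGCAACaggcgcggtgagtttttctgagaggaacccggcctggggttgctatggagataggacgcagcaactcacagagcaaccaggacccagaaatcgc
DNAI3 (chr1:85062077-85062376, plus strand): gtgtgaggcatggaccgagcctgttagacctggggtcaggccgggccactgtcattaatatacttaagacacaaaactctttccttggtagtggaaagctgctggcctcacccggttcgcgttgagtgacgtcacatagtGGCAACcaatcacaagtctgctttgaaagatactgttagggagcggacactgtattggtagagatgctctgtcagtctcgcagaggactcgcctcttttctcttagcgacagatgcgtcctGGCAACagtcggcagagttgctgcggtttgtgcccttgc
MNS1 (chr15:56465088-56465387, minus strand): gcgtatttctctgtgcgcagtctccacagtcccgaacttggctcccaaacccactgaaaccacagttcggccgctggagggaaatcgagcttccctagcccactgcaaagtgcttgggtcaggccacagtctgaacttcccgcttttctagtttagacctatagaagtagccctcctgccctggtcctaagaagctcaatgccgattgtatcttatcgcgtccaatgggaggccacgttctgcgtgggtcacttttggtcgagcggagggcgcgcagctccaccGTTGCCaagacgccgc
DRC11 (chr2:236507427-236507726, minus strand): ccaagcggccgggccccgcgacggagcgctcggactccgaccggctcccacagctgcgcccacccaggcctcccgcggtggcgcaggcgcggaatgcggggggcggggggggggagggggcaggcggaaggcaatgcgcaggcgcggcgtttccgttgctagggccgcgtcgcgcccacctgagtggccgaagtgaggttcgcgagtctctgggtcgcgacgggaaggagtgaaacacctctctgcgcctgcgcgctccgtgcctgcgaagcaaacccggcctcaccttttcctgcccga

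The PIH1D2 promoter held the whole X-box and only 9 CpG, and that of CFAP43 held a FOXJ1 core and 22 CpG. The RSPH4A promoter had 1 half-site, that of DNAI3 had 2 and that of MNS1 had 1, past the start. The DRC11 promoter held none of the motifs and 40 CpG, the most of the 6. Kept genes with a half-site or X-box (25) and those with neither (28) had medians of 0.16 and 0.15 (log2) for TET1 plasmids minus vector, which are nearly equal. These matches describe sequence only.

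Every intraflagellar transport gene passed the filter on low signal in these cells, while many motility genes did not. The filter asked that a cluster exceed the array's median on 2 or more arrays, which left 62 of the 92 genes (67.4%). By the same filter 11560 of 16098 named clusters (71.8%) and 28946 of all 53617 clusters (54.0%) were kept. All 11 IFT-B and 3 IFT-A genes passed, as did 9 of 10 nexin-dynein regulatory complex genes, 7 of 8 for dynein arms and docking and 7 of 9 for dynein assembly. By contrast, only 2 of 7 central apparatus genes, 6 of 16 genes for proteins inside the doublets and tektins, and 6 of 12 radial spoke genes passed, with 3 of 5 genes for tethers of the inner arms, 7 of 10 other CFAP genes and FOXJ1. The 30 not kept included the central apparatus genes SPAG6 and SPAG17, the tektins TEKT1, TEKT2 and TEKT3 and the spoke gene RSPH1. RSPH10B and RSPH10B2, near-identical copies whose probes may not separate them, were also left out.

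Among kept genes, 42 were above the median on all 8 arrays. CFAP43, DNAAF11, DNAI4 and PIH1D2 passed through plasmid arrays alone, and so had to be higher there to be kept. CFAP99 passed on arrays other than the plasmid ones. Levels of the kept genes ran up to 10.22 in CFAP20, which closes the inner junction between the tubules of a doublet. FOXJ1 itself was at 6.41 with TET1-FL, 6.45 with mTET1-FL, 6.34 with TET1-CD and 6.19 with mTET1-CD, against 6.01 with the vector, so all 4 plasmid arrays lay above it (0.34 ± 0.14, limma adjusted p = 0.36). Its levels in the clones were 5.85 in the clone shTET1#1 and 5.80 in the array labelled shTET1#2, against 6.05 in shControl.

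The comparison of the 4 TET1 plasmids with the vector asked what excess TET1 did, whatever its catalytic state. PIH1D2, RSPH4A, CFAP43 and DNAI4 had the largest excess over the vector. PIH1D2, a PIH-domain protein of the family that helps fold axonemal dyneins, was at 6.32 with TET1-FL, 6.45 with mTET1-FL, 6.84 with TET1-CD and 6.62 with mTET1-CD, against 4.70 with the vector. CFAP43, which tethers an inner arm dynein to the doublet in Chlamydomonas and Tetrahymena, was at 6.26, 6.06, 7.31 and 6.62 in the same 4 plasmid groups, against 5.18 with the vector. In both genes every plasmid array lay above the vector array and above all 3 shRNA arrays, which ran from 4.68 to 5.32 in PIH1D2 and from 4.93 to 5.36 in CFAP43. Both genes were kept through plasmid arrays alone, so the filter partly set this order. The fitted differences from the vector were 1.86 ± 0.28 (SE, log2) in PIH1D2 and 1.39 ± 0.18 in CFAP43, with limma adjusted p of 0.168 and 0.162. In RNA pooled from many cells, fewer cells of a type and less RNA per cell cannot be told apart.

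**Figure D1:**
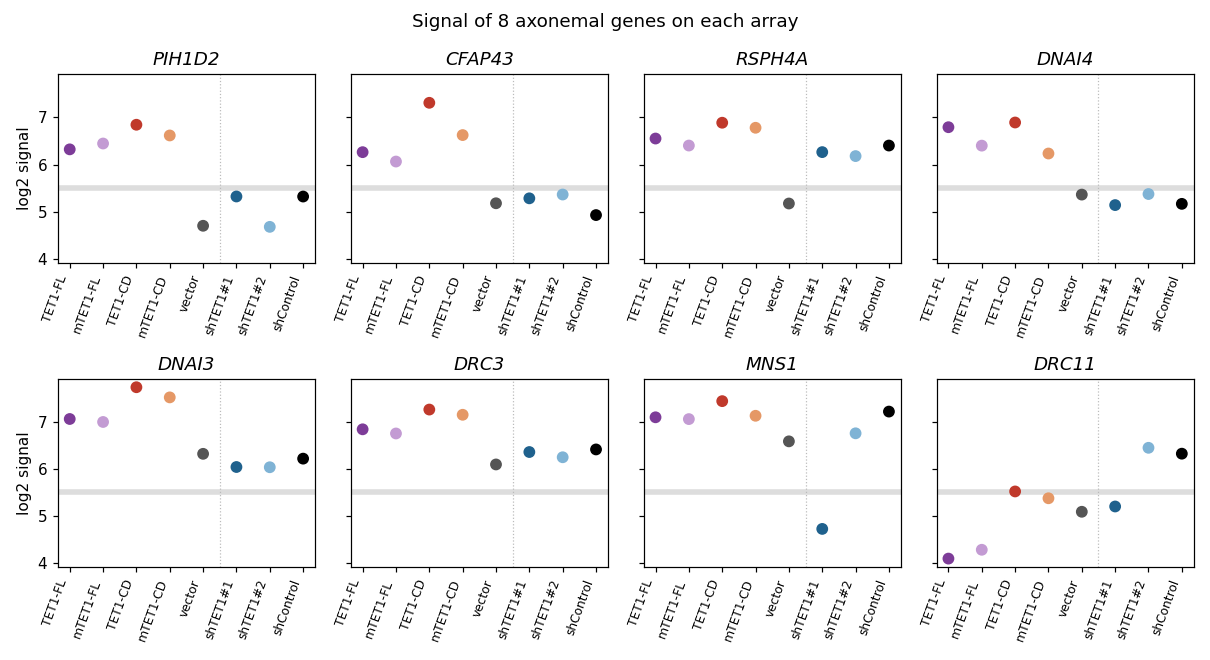
Each panel plots the log2 signal of 1 gene on the 8 arrays, 1 point per array, with no error bars because each array is 1 sample; the grey band marks the range of the array medians (5.47 to 5.55). PIH1D2, CFAP43 and DNAI4 cross the band between the plasmid arrays and the other 4, RSPH4A is low on the vector array alone, MNS1 is low in shTET1#1 alone (4.73), and DRC11 is lowest with TET1-FL (4.10).

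DNAI3 and DNAI4, intermediate chains of an inner arm dynein, also stood highest on the plasmid arrays. DNAI4 stood at 6.79 with TET1-FL, 6.40 with mTET1-FL, 6.89 with TET1-CD and 6.23 with mTET1-CD, against 5.36 with the vector, a difference of 1.22 ± 0.17 (limma adjusted p = 0.162). DNAI3 stood at 7.06, 7.00, 7.73 and 7.52 in those groups, against 6.32 with the vector, a difference of 1.01 ± 0.14 (limma adjusted p = 0.162). For both, the 4 plasmid values lay above the vector and the 3 clones, whose highest values were 5.37 for DNAI4 and 6.22 for DNAI3. DNAI4 was kept through plasmid arrays alone, so for it the filter partly set this order, whereas DNAI3 was above the median on all 8 arrays. DRC3, a nexin-dynein regulatory complex subunit, was 0.91 ± 0.14 above the vector (limma adjusted p = 0.171), with 6.84, 6.75, 7.26 and 7.15 in the plasmid groups, against 6.10 with the vector. Its values in the clones, 6.25 to 6.42, also lay below all 4.

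RSPH4A, a protein of the radial spoke head, gave another picture. It stood at 6.55 with TET1-FL, 6.40 with mTET1-FL, 6.89 with TET1-CD and 6.78 with mTET1-CD, against 5.17 with the vector. The difference of 1.48 ± 0.14 had a limma adjusted p of 0.162. Yet the shRNA clones had 6.26, 6.18 and 6.40, so the vector was the only array with a low value, and the mean of the 4 plasmids lay only 0.25 above shControl. CFAP44, partner of CFAP43 in the tether, was likewise 0.64 ± 0.15 above the vector but -0.37 from shControl. Its vector value (6.32) was not the only low one, since mTET1-FL stood at 6.30 and TET1-FL at 6.77. Of the 62 genes, RSPH4A, CFAP44 and DRC11 were 2-fold lower with the vector than in shControl (against 2.46%), 0 were 2-fold higher (against 2.09%), and RSPH4A and CFAP44 were 2-fold above the vector in both TET1 shRNA clones (against 0.681%). Vector and shControl differ in delivery, sorting and clonal origin, and these cannot be told apart.

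No gene of the 62 passed the threshold of 0.05 in limma's test of plasmids minus vector, nor did any of the 28946 clusters (0%), whose lowest adjusted p was 0.162. At an unadjusted p under 0.05, 16 of the 62 genes were higher with the plasmids (25.8%, against 8.78% of all kept clusters) and 1, IFT140, was lower (against 6.26%). Those 16 include CFAP43, DNAAF11, DNAI4 and PIH1D2, which the filter kept through plasmid arrays alone. Among the 42 genes above the median on all 8 arrays 9 were higher at that p (21.4%, against 8.2% of the clusters that met the same condition). Without regard to p, 30 of 62 lay above the vector on all 4 plasmid arrays (48.4%, against 27.2% of all kept clusters), and 6 lay below it on all 4 (9.68%, against 27.2%). Over all 92 genes and with no filter the share above was 42.4%, against 22.6% of all clusters. Among the 42 genes above the median on every array, which the filter could not favour, it was 40.5%, against 27.3% of the clusters that met the same condition. The median difference was 0.17 over the 62 genes and 0.0014 over all kept clusters, and by plasmid it was 0.13, 0.16, 0.33 and 0.21 with TET1-FL, mTET1-FL, TET1-CD and mTET1-CD.

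**Figure D2:**
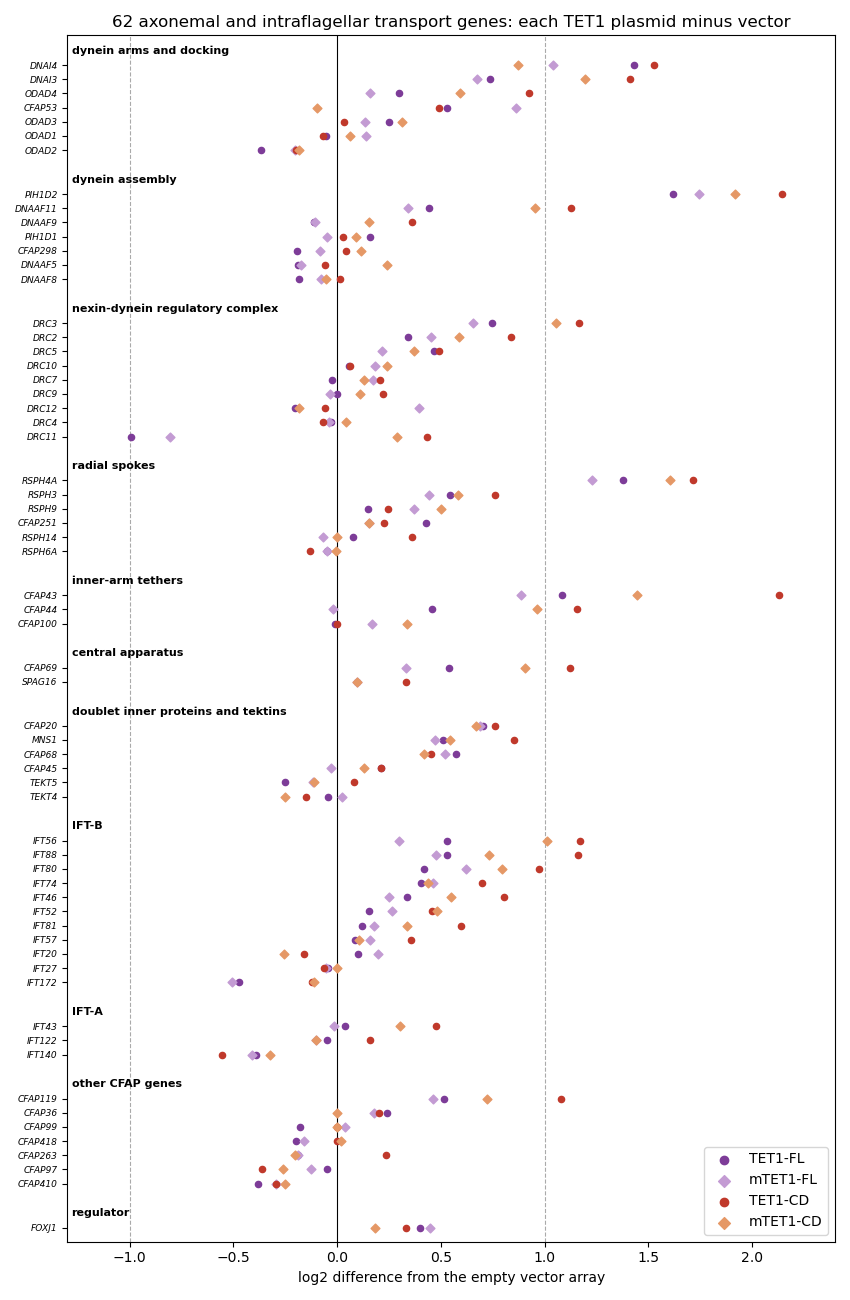
Each row is 1 of the 62 kept genes, grouped by role, and the horizontal axis gives the log2 signal on each of the 4 plasmid arrays minus that on the vector array (1 array each, so no error bars); dashed lines mark 2-fold. Points for PIH1D2 and RSPH4A lie beyond 2-fold on all 4 arrays, most IFT-B rows lie right of 0, and IFT140 and ODAD2 lie left of 0 on all 4.

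At least 2-fold above the vector on all 4 arrays were PIH1D2 and RSPH4A (3.23% of the 62, against 0.553%), and none was 2-fold below it on all 4 (against 0.0553%). At a limit of 1.5-fold CFAP20, CFAP43, DNAI3, DNAI4 and DRC3 joined them, which made 7 (against 2.59%). Of these, PIH1D2, CFAP43 and DNAI4 had to be high on plasmid arrays to be kept, as did DNAAF11, which enters the TET1-CD count below. Counted plasmid by plasmid, 4 genes were 2-fold higher with TET1-FL (against 3.1%), 3 with mTET1-FL (2.63%), 12 with TET1-CD (2.48%) and 6 with mTET1-CD (1.73%). None was 2-fold lower on those arrays (against 0.504%, 0.397%, 1.2% and 1.41% of all kept clusters). Against shControl in place of the vector, 37 genes were higher on all 4 plasmid arrays (59.7%, against 31.6%). Above the vector and shControl alike on all 4 arrays were 24 (38.7%, against 13.9%), and CFAP97 and ODAD2 lay below both (3.23%, against 12.4%). The counts of 37 and 24 include CFAP43, DNAAF11, DNAI4 and PIH1D2, kept through plasmid arrays alone, and were not repeated without the filter. The 4 genes CFAP43, DNAI3, DNAI4 and PIH1D2 were at least 1.5-fold above both controls (against 0.929%). All but DNAI3 had to be high on plasmid arrays to be kept, and of the 42 genes above the median on all 8 arrays DNAI3 alone met that limit (2.38%, against 0.748%).

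The differences from the vector also varied by role. The 7 genes of the dynein arms and docking had a median difference of 0.45, with ODAD4 at 0.49 ± 0.20 and ODAD2, another docking complex subunit, at -0.24 ± 0.16. The tethers had 0.64 over 3 genes, which is the value of CFAP44, whose plasmid mean lay -0.37 from shControl. The central apparatus had 0.44 over 2, where CFAP69 stood at 0.72 ± 0.26. Of the 6 spoke genes 4 lay above the vector on all 4 plasmid arrays (against 27.2% of all kept clusters), with RSPH3 at 0.58 ± 0.20 and a median of 0.28. RSPH3 stood at 8.13, 8.03, 8.35 and 8.17 with TET1-FL, mTET1-FL, TET1-CD and mTET1-CD, against 7.59 with the vector and 6.93 in shControl, and with CFAP43, DNAI4 and PIH1D2 was 1 of 4 genes at least 2-fold above shControl on all 4 arrays (against 1.2%). All of these but RSPH3 were kept through plasmid arrays alone. The 7 dynein assembly genes had a median of 0.057, and the 6 without PIH1D2 one of 0.014. Those 6 still include DNAAF11, which like PIH1D2 was kept through plasmid arrays alone. The medians of the arms and of the tethers likewise include DNAI4 and CFAP43, kept by that route. DNAAF11 was at 0.72 ± 0.15, and DNAAF5, DNAAF8, DNAAF9 and CFAP298 lay between -0.075 and 0.074.

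The IFT genes belong to separate complexes. Of the 11 IFT-B genes, whose complex drives transport towards the tip, 8 were above the vector on all 4 plasmid arrays (against 27.2% of all kept clusters). The median over the 11 was 0.34. IFT56 stood at 8.35 with TET1-FL, 8.12 with mTET1-FL, 8.99 with TET1-CD and 8.84 with mTET1-CD, against 7.82 with the vector (0.75 ± 0.32). IFT88, a subunit that cilium formation depends on, was at 0.72 ± 0.28, and IFT80 at 0.70 ± 0.17. The shControl values of IFT56, IFT88, IFT80 and IFT52 were 8.39, 5.74, 7.97 and 8.00. For IFT56, IFT88 and IFT52 both FL arrays lay at or below shControl, while the rest of the 8 lay above it on all 4 plasmid arrays. IFT172 was lower than the vector at -0.30 ± 0.14 and IFT27 lay at -0.040 ± 0.17. The 3 IFT-A genes, which serve return transport, had a median of -0.022. IFT140 was at 7.27, 7.25, 7.11 and 7.34 with TET1-FL, mTET1-FL, TET1-CD and mTET1-CD, against 7.66 with the vector, and its difference of -0.42 ± 0.15 had a limma adjusted p of 0.302.

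Inside the doublets, CFAP20 was 0.71 ± 0.15 and CFAP68 was 0.49 ± 0.17 above the vector, whereas TEKT4 and TEKT5 lay at -0.11 ± 0.15 and -0.10 ± 0.18. The 7 other CFAP genes had a median of -0.085, with CFAP119 highest at 0.69 ± 0.34 and CFAP410 and CFAP97 lowest at -0.30 ± 0.24 and -0.20 ± 0.14. DRC2 (0.56 ± 0.16) and DRC5 (0.39 ± 0.15) were above the vector on all 4 plasmid arrays along with DRC3, while DRC4 lay at -0.023 ± 0.14. DRC11 lay at -0.27 ± 0.47, an average over arrays that fell on opposite sides of the vector. MNS1 lay at 0.59 ± 0.74, a wide error that comes from the spread between its values in the 2 TET1 shRNA clones.

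FL plasmids set against CD plasmids compared the longer with the shorter construct at a matched catalytic state. DRC11 showed the widest gap of the 62 genes. It stood at 4.10 with TET1-FL and 4.29 with mTET1-FL, against 5.52 with TET1-CD and 5.38 with mTET1-CD, so both FL arrays were more than 2-fold lower. The vector lay between the groups at 5.09, as did shTET1#1 at 5.21, while shControl (6.33) and the array labelled shTET1#2 (6.45) were higher. The difference of -1.26 ± 0.42 had an unadjusted p of 0.0315 and a limma adjusted p of 0.307, and the FL values lie below the array medians, where background may limit the reading. The other DRC11 cluster, below the median on all 8 arrays, did not show this gap, at 0.032 in the wild-type and -0.073 in the mutant pair.

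Other genes were lower with FL by less. CFAP44 stood at 6.77 with TET1-FL and 6.30 with mTET1-FL, against 7.47 with TET1-CD and 7.28 with mTET1-CD (-0.84 ± 0.14, limma adjusted p = 0.133). Its partner CFAP43 differed by -0.80 ± 0.16 (limma adjusted p = 0.169), DNAAF11 by -0.65 ± 0.13 and DNAI3 by -0.60 ± 0.12, both with a limma adjusted p of 0.169. IFT56 differed by -0.68 ± 0.29. For each of these genes both FL arrays lay below both CD arrays. DNAI4 did not share the order, at 0.034 ± 0.15, and neither did CFAP20, at -0.020 ± 0.13. On the higher side, CFAP53, needed for left-right asymmetry, differed by 0.50 ± 0.25, with 6.10 and 6.43 with TET1-FL and mTET1-FL, against 6.07 and 5.48 with TET1-CD and mTET1-CD, and its gap lay almost all in the mutant pair. IFT20, which also works at the Golgi, differed by 0.36 ± 0.17 and FOXJ1 by 0.16 ± 0.13.

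None of the 62 passed limma's threshold for FL minus CD, nor did any cluster (0%, lowest adjusted p of 0.114). At an unadjusted p under 0.05, 9 were lower with FL (14.5%, against 4.87% of all kept clusters) and 0 higher (against 8.86%). In both the wild-type and the mutant pair, 36 of 62 were lower with FL (58.1%, against 32%) and 8 were higher (12.9%, against 33.5%). Over all 92 genes the lower share was 50%, against 26.7% of all clusters, and among the 42 above the median on every array it was 54.8%, against 33.6%. The median difference was -0.13, with -0.22 in the wild-type and -0.13 in the mutant pair. It was 0.0031 over all kept clusters and -0.022 over kept named clusters. All 7 dynein assembly genes had a fitted difference below 0, as did 10 of 11 IFT-B genes and 8 of 9 of the nexin-dynein regulatory complex. Among all kept clusters 49.3% lay below 0, and among kept named clusters 6321 of 11560. DRC11 alone was 2-fold lower in both pairs (against 0.0898%), none was 2-fold higher in both (against 1.03%), and CFAP44, DNAAF11 and IFT56 joined it at 1.5-fold (against 0.784%).

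**Figure D3:**
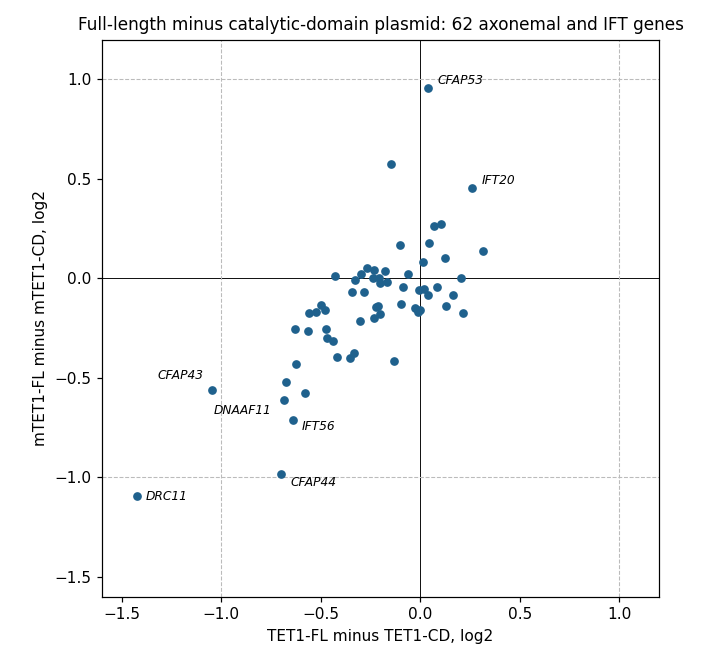
Each point is 1 of the 62 genes, with the log2 difference TET1-FL minus TET1-CD across and mTET1-FL minus mTET1-CD up; dashed lines mark 2-fold and each axis compares 1 array with 1 array. The lower left area, lower with FL in both pairs, holds 36 genes and the upper right area 8, and DRC11 is the only gene past 2-fold on both axes.

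Wild-type set against mutant plasmids asked what depended on the catalytic activity of TET1. Of the 62 genes, 57 lay within 0.25 log2 units of no difference (91.9%, against 87.2% of all kept clusters). DNAI4 was highest at 0.52 ± 0.15, with 6.79 for TET1-FL against 6.40 for mTET1-FL, and 6.89 for TET1-CD against 6.23 for mTET1-CD. CFAP43 followed at 0.44 ± 0.16, with 6.26 for TET1-FL against 6.06 for mTET1-FL, and 7.31 for TET1-CD against 6.62 for mTET1-CD. Both genes were higher with the wild-type form in both constructs, and both had an unadjusted p under 0.05 with a limma adjusted p of 1. CFAP44 stood at 0.33 ± 0.14, the spoke gene RSPH14 at 0.25 ± 0.13, IFT88 at 0.24 ± 0.25 and ODAD4 at 0.23 ± 0.18. On the other side were CFAP100, another inner-arm tether protein, at -0.26 ± 0.15, the spoke head gene RSPH9 at -0.24 ± 0.18 and DRC12 at -0.24 ± 0.25.

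No cluster passed the threshold for wild type minus mutant (0%, lowest limma adjusted p of 1). CFAP43 and DNAI4, the 2 genes with an unadjusted p under 0.05, were 3.23% of the 62, against 1.04% of all kept clusters with a higher unadjusted call, and 0 were lower at that p (against 0.915%). The wild-type form was higher in both constructs in 25 genes (40.3%, against 25%) and lower in both in 10 (16.1%, against 23%), and none was 2-fold apart in both (against 0.0104% higher and 0.0138% lower). The median was 0.071 (0.0027 over all kept clusters and 0.011 over kept named ones), with 0.0085 in the FL pair and 0.12 in the CD pair. PIH1D2 differed by 0.052 ± 0.25, with the wild-type form below the mutant in FL and above it in CD, and DRC11 by -0.021 ± 0.42.

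The clones with an shRNA against TET1 were set against the control clone, although TET1 itself was not clearly lower in the array labelled shTET1#2. MNS1, a protein inside the doublet that flagella and laterality depend on in mice, stood apart. Its signal was 4.73 in shTET1#1 and reached 6.76 in the array labelled shTET1#2, against 7.22 in shControl. The 5 plasmid and vector arrays held 6.59 to 7.44, so shTET1#1 was the only array with a low value. The differences were -2.49 and -0.46, and the fitted -1.47 ± 0.81 had a limma adjusted p of 0.735. DRC11 likewise was lower in shTET1#1 (-1.12) and not in the array labelled shTET1#2 (0.12), whereas its other cluster stood at -0.24 and -0.23 in these clones. These were the 2 genes at least 2-fold lower in shTET1#1 (3.23%, against 0.905% of all kept clusters), and none was in the other clone (against 2.16%).

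DNAAF11, an assembly factor for outer and inner dynein arms, was at 5.20 in the first TET1 clone and at 5.38 in the array labelled shTET1#2, against 4.58 in shControl. Its difference of 0.71 ± 0.16 (limma adjusted p = 0.501) was the only one with an unadjusted p under 0.05 (1 of 62, or 1.61%, against 3.36% higher among all kept clusters), and none was lower at that p (against 4.56%). Its shControl value is the lowest of all 8 arrays, but both TET1 clones and the vector (5.16) also lie below the array medians, where background may limit all 4 readings. CFAP68 followed at 0.48 ± 0.19, CFAP43 at 0.40 ± 0.20, DRC12 at 0.37 ± 0.30, CFAP45 at 0.33 ± 0.25 and IFT20 at 0.32 ± 0.19. Lower were IFT74 at -0.34 ± 0.20, ODAD2 at -0.33 ± 0.17, PIH1D2 at -0.32 ± 0.31, CFAP119 at -0.27 ± 0.38 and FOXJ1 at -0.23 ± 0.16.

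Over the 62 genes, neither direction was more frequent in the clones. Both clones were higher than shControl in 16 genes (25.8%, against 29.4%) and lower in 16 (25.8%, against 33.1%), no gene was 2-fold apart in both (against 0.432% higher and 0.383% lower), and the median was 0.0025, against -0.010 over all kept clusters. No cluster passed the threshold (0%, lowest limma adjusted p of 0.16). PIH1D2, DNAI3 and DNAI4, high in every plasmid group, lay at -0.32, -0.18 and 0.091 in this contrast. The PIH1D2 value came from the array labelled shTET1#2 alone.

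**Figure D4:**
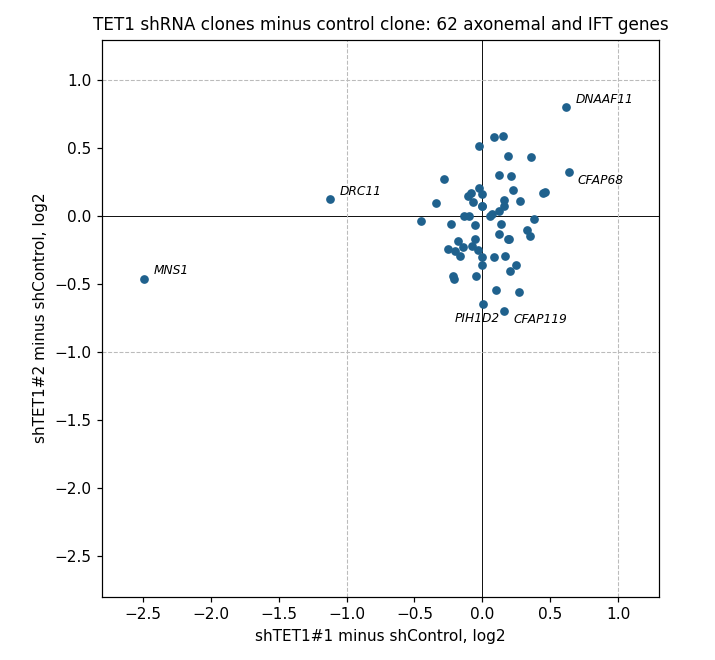
Each point is 1 of the 62 genes, with the log2 difference shTET1#1 minus shControl across and shTET1#2 minus shControl up, 1 array against 1; dashed lines mark 2-fold. The points cluster around 0, MNS1 (-2.49) and DRC11 (-1.12) lie far left, and DNAAF11 lies upper right.

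The wider ciliary programme was read from lists drawn up with earlier results of these data known. Of 40 further axonemal genes 26 were measured and 18 kept. Of these 18, 13 had a fitted difference above 0 for plasmids minus vector, against 50.2% of all kept clusters. The median over the 18 was 0.36, from TTC12 at -0.16 to LRRC46 at 1.14. LRRC46 lay at 5.48 to 5.59 on the vector and shRNA arrays, close to the array medians. For FL minus CD, 16 of the 18 lay below 0, against 49.3% of all kept clusters and 6321 of 11560 kept named clusters. The 11 kept IFT motor genes and IFT genes with other symbols had a median of 0.18 against the vector, 24 BBSome and transition zone genes had 0.12 (from BBS2 at -0.43 to ARL6 at 0.68) and 14 basal body and centriole genes had 0.17 (from CEP152 at -0.35 to CCP110 at 0.68). None of these genes passed limma's threshold in any contrast.

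Of 15 regulators of the multiciliated cell fate 9 were measured and 6 kept, with a median of -0.073 against the vector, from TFDP1 at -0.35 to MCIDAS, an inducer of the multiciliated fate, at 0.082. Their median level over the 9 was 6.56 to 6.68 on the plasmid arrays, against 6.61 on the vector array, and DEUP1, GMNC and CDC20B lay below the median on every array. In the shRNA contrast all 6 kept regulators had a fitted difference below 0 (against 52.2% of all kept clusters), with a median of -0.20. Among them FOXN4 was nearly level (-0.0046). CCNO was higher in shTET1#1 (5.91) and lower in the array labelled shTET1#2 (5.44) than in shControl (5.85). TP73, a p53 family member needed for multiciliated cells in mice, was lowest at -0.82, the TET1 clones holding 6.09 (the first) and 5.95, against 6.84 in shControl. None of the 6 passed limma's threshold there. Of 8 multiciliated cell markers 4 were measured, with a median level of 6.00 to 6.14 on the plasmid arrays, against 6.13 on the vector array. Of 7 sperm markers 5 lay below the array medians throughout, among them PRM1 and TNP1, and the 2 kept, PRM2 and ACR, had a median of -0.31 against the vector.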

How the data were processed

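RNA from 8 HEK293T samples was measured on 8 Affymetrix arrays. The deposited values are log2 signals per transcript cluster. Affymetrix Expression Console 1.3.1 and RMA (background correction, normalization between arrays and summary of probes) are listed in the submitters' processing notes; what each did, and in which order, is not given in the sources used here, nor is a genome build. Of 53981 rows, 364 held no value. Gene names came from the platform annotation, in which 16098 clusters had 1 symbol, 0 had several and 37519 had none. No pair of arrays was identical.

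All 28946 clusters above the median on at least 2 arrays entered 1 limma 3.58.1 fit (lmFit and eBayes, R 4.3.3) of all 8 arrays, with terms for the wild-type and mutant plasmids, construct, vector, and the TET1 and control shRNAs, and p-values were adjusted over all of them by Benjamini-Hochberg (threshold 0.05). Only 2 residual degrees of freedom remain, namely the gap between both TET1 clones and the interaction of construct with catalytic state. SEs and p-values measure that spread, which may be technical, not the spread of separate cultures. The fitted prior was 2.89 degrees of freedom with an SD of 0.154. Pairs of single arrays were compared without a test, and precision is limited by the small number of arrays.

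The genes, roles and lists were chosen with earlier results of these data known. Named with values were CFAP43, PIH1D2, DRC11, MNS1 and FOXJ1, the 6 highest and 6 lowest genes of each contrast, those 2-fold apart in all pairs of a contrast and the extremes of each list; other genes were named by role after their values were seen. The fit was tested on simulated data with the real means of 28946 clusters. For plasmids minus vector it recovered 0.485% of 2-fold, 64.8% of 4-fold and 97.5% of 16-fold changes, and for FL minus CD 2.87%, 80.8% and 98.1%. For wild type minus mutant it recovered 4.69%, 79.2% and 97.7%, and for the shRNA contrast 0%, 56.2% and 96.6%. Alternatives changed the normalization, centring, filter, cluster per symbol, arrays in the fit, control array and fold limit.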

Additional observations from a re-analysis of the deposited data

Results flagged for a closer look

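In 4 genes both FL arrays lay on one side of the vector and both CD arrays on the other. The share of all kept clusters with such a split was not counted, so this count cannot be called frequent or rare. DRC11 stood at -0.99 (TET1-FL) and -0.81 (mTET1-FL) from the vector, against 0.43 (TET1-CD) and 0.29 (mTET1-CD), and FL minus CD was -1.26 (limma adjusted p = 0.307). Its other cluster, below the array medians, stood at 0.032 and -0.073 for FL minus CD in the wild-type and mutant pairs. DNAAF9, a dynein assembly gene, stood at -0.11 and -0.10 with the FL plasmids, against 0.36 and 0.15 with the CD plasmids, with FL minus CD at -0.365 (adjusted p = 0.488 in limma). CFAP298, needed for dynein assembly in zebrafish, stood at -0.19 and -0.084, against 0.044 and 0.11, with FL minus CD at -0.22 (limma adjusted p = 0.582). IFT20 ran the other way, at 0.10 and 0.20 with the FL plasmids, against -0.16 and -0.25 with the CD plasmids, with FL minus CD at 0.36 (limma adjusted p = 0.414). None of these 4 differences passed the threshold, and each rests on 1 vector array.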

How the results depend on the processing

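No gene of the family passed limma's threshold under any alternative in any of the 4 contrasts. The medians for plasmids minus vector, wild type minus mutant and FL minus CD kept their sign throughout. Leaving out 1 array at a time gave FL minus CD medians from -0.22 to -0.13, the lower without mTET1-CD or without mTET1-FL. For the shRNA contrast the median was -0.025 without shTET1#1 and 0.029 without the array labelled shTET1#2. Centring the arrays on their medians gave it as -0.045 (all kept clusters -0.058) and the vector as control gave it as -0.041. With the filter set to above the median on all 8 arrays, 0 genes were 2-fold apart for plasmids against vector and 0 for FL against CD, since PIH1D2, RSPH4A and DRC11 were then not tested. A 1.5-fold limit gave 7, 1 and 4 genes for plasmids, shRNA and FL against CD. With the other control array, 4 genes were 2-fold above it on all plasmid arrays and 2 in both shRNA clones. The same swap reversed CFAP410 (0.043) and MNS1 (-0.037) for plasmids, and IFT20 (-0.38), DRC11 (0.73), ODAD2 (0.085), PIH1D2 (0.30) and CFAP119 (0.14) for shRNA. Among the genes checked, cyclic loess reversed DRC11 for wild type minus mutant (0.0048). Counts against both control arrays (37 and 24 genes), those among the 42 genes (9 and 1) and the median without PIH1D2 were added after seeing the data. No paired analysis was possible because the groups compared share fewer than 2 replicate numbers. Causes of these shifts were not tested, except where fewer genes were tested.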
